A study of Mus musculus with 9 samples.

Results

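The TRIM (tripartite motif) family was taken from the count table by name: every gene whose symbol is Trim followed by a number and an optional letter. This gave 68 genes, all annotated as protein-coding, among 52636 rows, and no measured value entered the choice of members. The family itself was selected on the difference between the groups described here, so fold changes, adjusted p-values and counts of members are a description of these libraries and no independent evidence of a direction. The 5 libraries labelled knockout came from mouse liver endothelial cells with the genotype given as Erg and Fli1 double knockout, and the 4 control libraries from cells given as wild type, all from mice that received tamoxifen and all taken at day 7 afterwards. Erg and Fli1 encode transcription factors of the ETS family that are active in endothelium. Cells had bound a VE-cadherin antibody injected into the living animal, and the sort then kept live CD31-positive cells without CD45. The sources used here do not give the promoter that drove the recombinase, the exons it removed or the age of the mice.

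Most TRIM proteins share a RING domain that passes ubiquitin from a conjugating enzyme to a target, 1 or a pair of B-boxes and a coiled coil, and they differ in the domain at the carboxyl end. Many members are switched on by interferons through a promoter element, the interferon-stimulated response element (ISRE), which is bound by transcription factors that interferon receptors activate. Some of these restrict retroviruses by binding the capsid, and others tune the sensing of viral RNA and DNA. Other members have no known tie to interferon and work in chromatin repression, early development, nerve cells or muscle. The question here was whether the members that were lower in the libraries labelled knockout were limited to the interferon-induced ones.

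The targeted genes were first checked against the labels. Erg was measured at 142.9 ± 10.9 CPM in the libraries labelled knockout and 311.6 ± 17.8 CPM in control libraries (SD, n = 5 and 4), a log2 fold change of -1.12 (SE of 0.08, edgeR-adjusted p = 2.61e-05). Fli1 went against its label at 147.4 ± 22.5 CPM in the libraries labelled knockout and 100.1 ± 8.01 CPM in control libraries (SD, n = 5 and 4), a log2 fold change of 0.56 (SE of 0.12, edgeR-adjusted p = 0.00636). A count over the whole gene cannot show whether an exon was removed, so the groups are called the libraries labelled knockout and the control libraries throughout. By Xist against Ddx3y, 2 of the libraries labelled knockout were male and 3 female, and 3 of the control libraries were male and 1 female. Library totals lay between 26791371 and 36401682 counts in the libraries labelled knockout and between 31613059 and 34663989 in the control libraries, so that 1 count was worth at most 0.0368 CPM (the usual unit of a count scaled to the size of its library). Replicates 2 and 3 labelled knockout stood apart from replicates 1, 4 and 5 on the second principal component, at -53.2 and -26.802 against 11.7 to 46.2, with controls between -20.4 and 16.3. Of 5 endothelial markers, 1 passed the test (Tek, lower), and the sinusoidal markers summed to 3748 to 5925 CPM in the libraries labelled knockout against 13697 to 14443 CPM in control libraries, with 3 of 4 lower. Leukocyte and macrophage markers summed to 57.3 to 370.5 CPM in the libraries labelled knockout against 62.7 to 272.3 CPM in control libraries, and 0 of 7 passed the test (edgeR adjusted p between 0.306 and 0.905). Hepatocyte markers summed to 15.6 to 183.97 CPM in the libraries labelled knockout against 141.9 to 326.02 CPM in control libraries, and 0 of 5 passed the test. The 3 platelet markers Pf4, Ppbp and Gp9 were higher, and the list of erythroid and platelet markers summed to 36.9 to 74.5 CPM against 18.6 to 29.95 CPM in control libraries. Lymphoid, stellate and cholangiocyte markers summed to at most 19.6 CPM in any library, with 0 calls. No marker of these lists was at 0 in all libraries. The part of these other cells in the results below was not tested.

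Promoter sequence is a feature that the choice of members did not use. The ISRE was searched as GAAANNGAA on both strands of RefSeq promoters (build GRCm38.p6, from 250 bases before to 50 bases after each start). At least 1 such promoter was held for 53 of the 68 members. Shown are 100 bases (70 before and 30 after the start) of the members with an ISRE in that window that recur in the results, 6 that were lower and then Trim5 and Trim25, which were not. Each is written 5′ to 3′ on the strand of its gene, with the ISRE in capitals.
Trim30a (chr7:104465164-104465263, minus strand): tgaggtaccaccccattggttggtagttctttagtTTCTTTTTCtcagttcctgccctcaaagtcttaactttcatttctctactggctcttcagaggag
Trim30d (chr7:104507820-104507919, minus strand): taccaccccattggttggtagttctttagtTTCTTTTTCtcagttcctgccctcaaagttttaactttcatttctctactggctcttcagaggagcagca
Trim12c (chr7:104353320-104353419, minus strand): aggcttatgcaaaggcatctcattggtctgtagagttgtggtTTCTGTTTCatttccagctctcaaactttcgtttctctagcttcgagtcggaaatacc
Trim12a (chr7:104315466-104315565, minus strand): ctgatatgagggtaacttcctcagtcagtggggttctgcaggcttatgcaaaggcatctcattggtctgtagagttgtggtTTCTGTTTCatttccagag
Trim34a (chr7:104244387-104244486, plus strand): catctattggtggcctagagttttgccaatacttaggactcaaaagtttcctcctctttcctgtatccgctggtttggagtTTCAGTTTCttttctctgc
Trim21 (chr7:102565453-102565552, minus strand): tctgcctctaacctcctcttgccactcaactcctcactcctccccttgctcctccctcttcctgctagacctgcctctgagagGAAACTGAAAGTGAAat
Trim5 (chr7:104288077-104288176, minus strand): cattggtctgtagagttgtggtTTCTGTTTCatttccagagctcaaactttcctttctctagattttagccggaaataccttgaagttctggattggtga
Trim25 (chr11:88999333-88999432, plus strand): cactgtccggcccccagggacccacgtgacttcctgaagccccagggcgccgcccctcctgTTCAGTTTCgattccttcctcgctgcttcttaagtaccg
The capitals of Trim21 span 2 overlapping matches, 14 and 20 bases after the start, whereas the other 7 windows hold 1 match each. In Trim30a, Trim30d, Trim12c, Trim12a, Trim34a, Trim5 and Trim25 the match lies on the opposite strand and so reads as its reverse complement. Within the bases shown, the longest identical run of Trim30a and Trim30d was 59 bases and included the ISRE. It began at the edge of the Trim30d window, and in the full promoters searched both genes stayed identical further upstream. Within the bases shown, Trim12a and Trim12c shared an identical run of 59 bases, and Trim12a and Trim5 one of 41 bases, each again including the ISRE. The windows cut these lengths, which therefore do not rank the pairs. In the full promoters searched, Trim12a and Trim5 stayed identical on both sides of their run. Trim12a and Trim12c differed a few bases before theirs. The starts of Trim12a, Trim12c and Trim5 are annotated at different distances from the bases they share. The match begins 12 bases after the start in Trim12a, 28 bases before it in Trim12c and 48 bases before it in Trim5.

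The ISRE was in a promoter of 12 of the 53 members (22.6%), against 9.76% of 27025 genes in the same table. Among interferon-induced members it was in 10 of 15, the 8 shown above together with Trim26 and Trim34b. Trim6, Trim30b, Trim30c, Trim38 and Trim56 held none in this window. Among other members it was in 2 of 38, Trim2 and Trim7. Of the other members that could be tested for expression it was in 2 of 20 (10%), against 8.81% of 10443 tested genes with a promoter. Split by the calls described below, it was in 6 of 7 lower interferon-induced members and 4 of 7 without a call. It was in 2 of 4 lower other members and 0 of 2 higher ones. The second interferon motif, GAS (TTCNNNGAA), was in 2 of the 15 interferon-induced members, against 9.55% of the 27025 genes. The ETS motifs CCGGAAGT and CAGGAAGT were in 0 and 1 of the 15, the match being in Trim25, against 4.31% and 3.86% of those genes. No ISRE match in a member overlapped a match of another motif. These counts describe letters in a window and say nothing of binding.

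Of the 68 members, 42 had enough counts to be tested, and 40 of these reached the required level of 0.312 CPM in at least 4 libraries of each group. Lower in the libraries labelled knockout were 14 of 42 members (33.3%), where 14.8% of the 14583 genes tested were lower at the same threshold, an edgeR adjusted p under 0.05. Of these 14, 6 are neighbours in 1 block on chromosome 7, so the members are no set of independent genes. Higher were 5 of 42 (11.9%), where 14.5% of all genes were higher, and 23 had no call. The median log2 fold change over the tested members was -0.34, against 0.01 over all genes, whose quartiles were -0.31 and 0.29. Groups did not overlap in 13 members with every library labelled knockout below every control library, where 13.8% of all genes did so, and in 3 members the other way round, where 13.2% of all genes did so. A bulk sample cannot tell fewer cells of a type from less RNA per cell.

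Of the 14 lower members, 8 were on the interferon-induced list and 6 were not. The list was drawn up with earlier results of these data known, so the split is a description and no independent evidence. Of the 16 members of this list, 15 were tested, and 8 were lower (53.3%), 0 higher by edgeR and 7 without a call, with a median log2 fold change of -0.74. Of the other 52 members, 27 were tested, and 6 were lower (22.2%), 5 higher (18.5%) and 16 without a call, with a median of -0.06. The shares of the other members lay nearer to the 14.8% lower and 14.5% higher of all genes. With a narrower list of 12 interferon-induced members, 7 were lower and 0 higher. Of the interferon-induced members, 1 (Trim25) was higher at an unadjusted edgeR p under 0.05, and after adjustment 1 was called higher by DESeq2 and 0 by limma-voom.

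**Figure D1:**
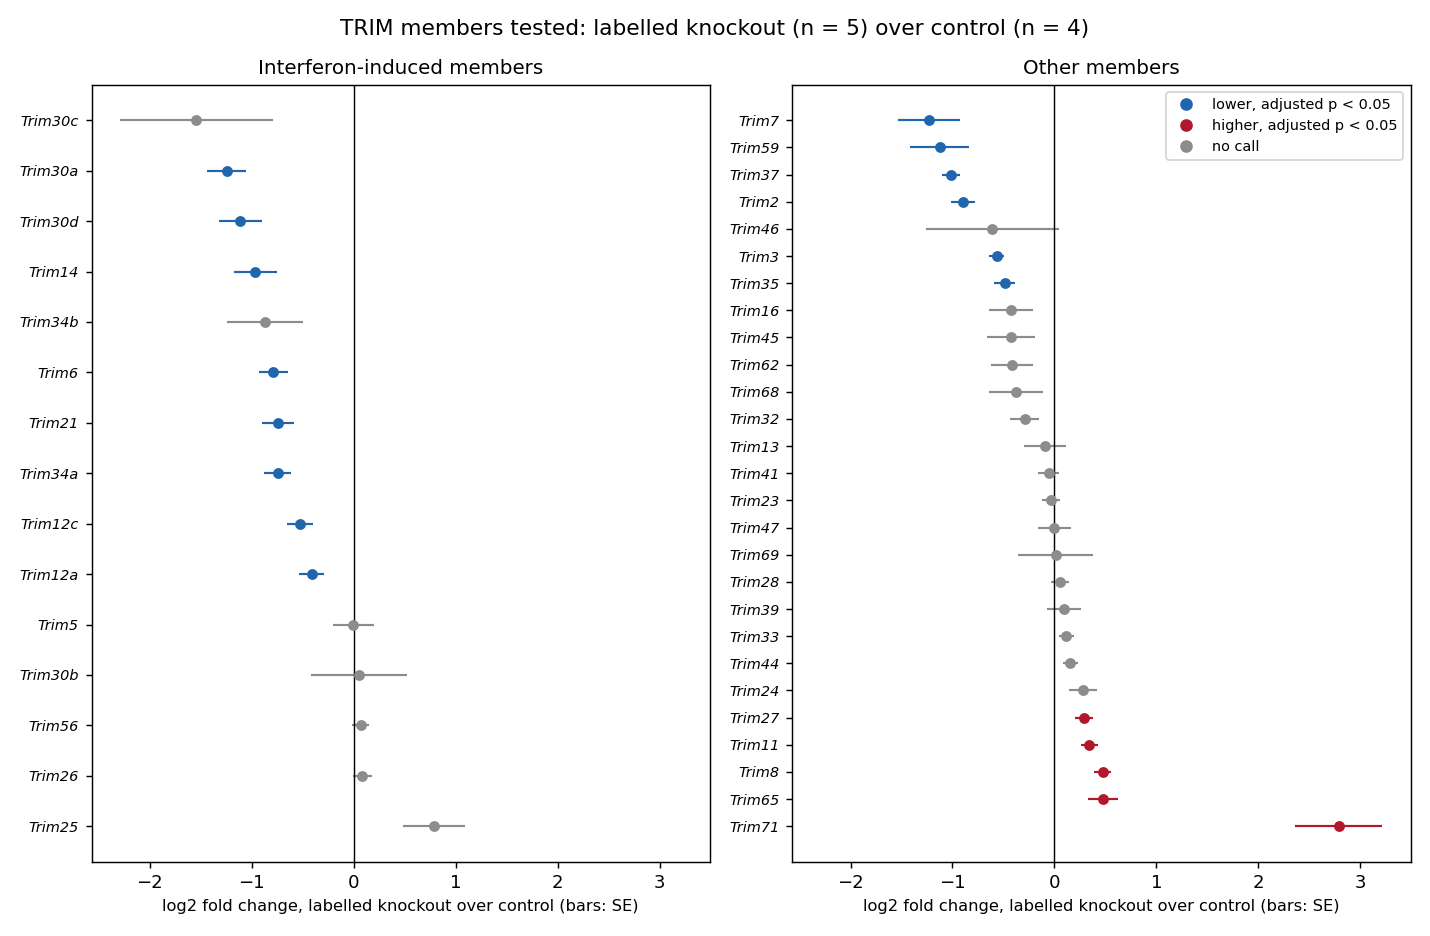
Log2 fold change of each tested TRIM member, labelled knockout (n = 5) over control (n = 4), with bars for the standard error, for 15 interferon-induced members on the left and 27 others on the right. Lower members at an adjusted p under 0.05 are blue (8 on the left, 6 on the right), higher ones red (5, all on the right) and those without a call grey.

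Per kilobase of exon, which allows levels of different genes to be set side by side, the family's order differed between the groups. Trim25 had the highest level in the libraries labelled knockout at 75.1 ± 35.1 CPM per kb and the fourth in control libraries at 43.6 ± 5.24 CPM per kb (SD, n = 5 and 4). Trim47 ranked the second in the libraries labelled knockout at 55.2 ± 11.3 CPM per kb and the first in control libraries at 55.2 ± 8.998 CPM per kb. Trim25 and Trim47 thus overlapped within each group's spread. Trim30a ranked the tenth in the libraries labelled knockout at 19.5 ± 3.18 CPM per kb and the third in control libraries at 46.3 ± 12.5 CPM per kb. In control libraries Trim35, at 47.95 ± 2.08 CPM per kb, lay within the spread of Trim30a, and in the libraries labelled knockout it lay well above it at 34.2 ± 4.67 CPM per kb. Chromatin-binding Trim28 had a level of 31.8 ± 3.61 CPM per kb in the libraries labelled knockout and 30.6 ± 1.11 CPM per kb in control libraries.

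**Figure D2:**
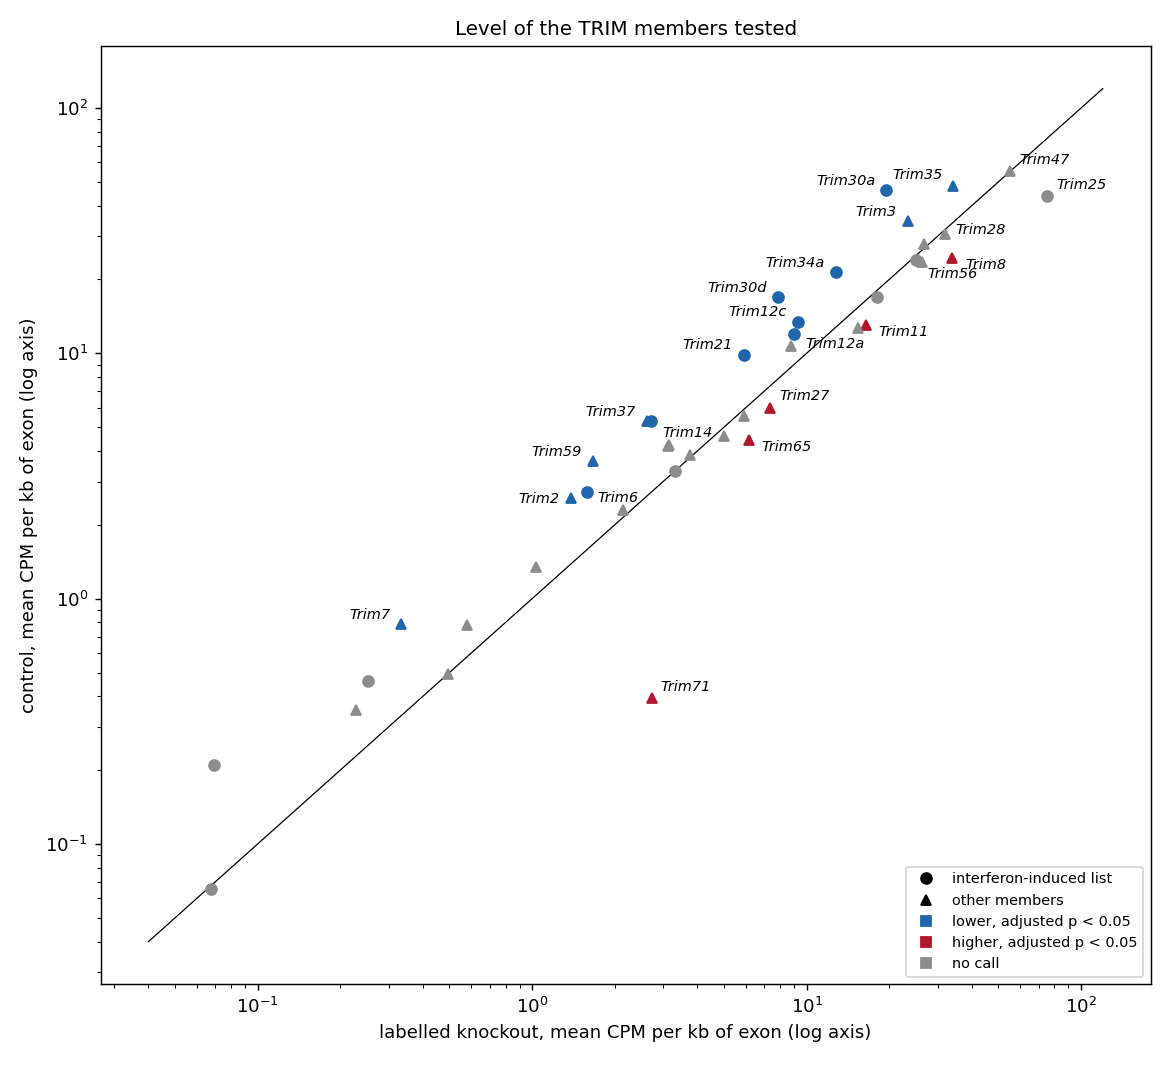
Mean level of each tested TRIM member in CPM per kilobase of exon, labelled knockout on the horizontal and control on the vertical log axis, with equal levels on the line. Circles are interferon-induced members and triangles the others, and colour gives the call; Trim30a lies above the line at 19.5 against 46.3, and Trim71 farthest below it.

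Most interferon-induced members sit in 1 block of 289 kb on chromosome 7 (GRCm38, chr7:104218793-104507849), in the order Trim6, Trim34a, Trim5, Trim12a, Trim34b, Trim12c, Trim30b, Trim30c, Trim30a and Trim30d. All 10 were tested, and 6 were lower, 0 higher and 4 without a call. Over all genes tested, 14.8% were lower and 14.5% higher. The 2 largest called falls of the block were at its far end. Trim30a, which in mouse curbs Toll-like receptor signalling by driving the loss of TAB2 and TAB3, had 95.2, 66.1, 68.2, 91.03 and 80.6 CPM in the libraries labelled knockout, against 219.7, 243.5, 128.6 and 168.8 CPM in control libraries. Every library labelled knockout was below every control library, with a log2 fold change of -1.25 (SE of 0.19, edgeR-adjusted p = 0.00125), a level 2.37-fold lower. Its neighbour Trim30d, which shares a promoter run of at least 59 bases with it, had 29.7, 22, 23.4, 38.3 and 33.9 CPM in the libraries labelled knockout, against 78.1, 74.2, 44.1 and 58.2 CPM in control libraries. The groups again did not overlap, with a log2 fold change of -1.11 (SE of 0.21, edgeR-adjusted p = 0.00361). Control replicate 3 was the lowest control for both genes, at 128.6 and 44.1 CPM, and still lay above every library labelled knockout.

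At the other end of the block, Trim6, a ligase that builds free ubiquitin chains used by the kinase IKKε, had 7.48, 7.99, 8.08, 7.84 and 7.25 CPM in the libraries labelled knockout, against 12.3, 17.4, 10.5 and 13.4 CPM in control libraries. The libraries labelled knockout lay within a narrow band well below the controls, with a log2 fold change of -0.79 (SE of 0.14, edgeR-adjusted p = 0.00276). Trim34a is the mouse relative of human TRIM34, which takes part in capsid restriction in human cells. It had 32.9, 26.79, 32.3, 37.1 and 36.5 CPM in the libraries labelled knockout, against 58.9, 67.9, 46.7 and 48.3 CPM in control libraries. The groups did not overlap, with a log2 fold change of -0.74 (SE of 0.13, edgeR-adjusted p = 0.00273).

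Trim12a, Trim12c and Trim5 are mouse relatives of primate TRIM5, a restriction factor that binds retroviral capsids, and they share the promoter run shown above. Trim12c had 36.2, 25.3, 35.9, 36.3 and 40.2 CPM in the libraries labelled knockout, against 53.8, 54.3, 48.2 and 44.8 CPM in control libraries, with a log2 fold change of -0.53 (SE of 0.13, edgeR-adjusted p = 0.0117). Trim12a had 54.2, 42, 52.9, 54.6 and 57.3 CPM in the libraries labelled knockout, against 68.3, 85.7, 63.5 and 60.03 CPM in control libraries, with a log2 fold change of -0.41 (SE of 0.12, edgeR-adjusted p = 0.0303). The groups did not overlap in either gene, but the gap in Trim12a was small, 57.3 CPM for the highest library labelled knockout and 60.03 CPM for the lowest control, and its call was lost in 6 of 19 alternative settings, among them leaving out replicate 3 labelled knockout (edgeR adjusted p = 0.0517), control replicate 1 (0.0622) or control replicate 2 (0.0857). Trim5 had 11.5, 9.07, 9.15, 13.7 and 17.6 CPM in the libraries labelled knockout, against 11.8, 12.3, 14.2 and 10.6 CPM in control libraries, and no call was made, with a log2 fold change of -0.0043 (SE of 0.20, edgeR-adjusted p = 0.99). The libraries labelled knockout lay on both sides of the controls, with replicates 2 and 3 below all of them and replicate 5 above. The difference between Trim5 and its relatives was not tested.

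The remaining 3 genes of the block were near the detection limit. Trim34b had 0.459, 0.370, 0.416, 0.663 and 0.434 CPM in the libraries labelled knockout, against 0.720, 1.44, 0.410 and 0.857 CPM in control libraries, with a log2 fold change of -0.87 (SE of 0.37, edgeR-adjusted p = 0.105). Trim30c ranged from 0 to 0.309 CPM in the libraries labelled knockout and from 0.0630 to 0.556 CPM in control libraries, with a log2 fold change of -1.54 (SE of 0.75, edgeR-adjusted p = 0.152). With a sex term its log2 fold change was -0.88. Trim30b ranged from 0.167 to 0.847 CPM in the libraries labelled knockout and from 0.325 to 0.750 CPM in control libraries, with a log2 fold change of 0.05 (SE of 0.47, edgeR-adjusted p = 0.947). Groups overlapped in all 3 genes. Leaving out control replicate 3 brought Trim34b past the threshold (edgeR adjusted p = 0.0469). Only 2 of the 8 genes in the block that are no members could be tested. Gm15133 had no call, and the pseudogene Gm16464, which lies inside Trim30d, was lower (edgeR adjusted p = 0.00183).

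**Figure D3:**
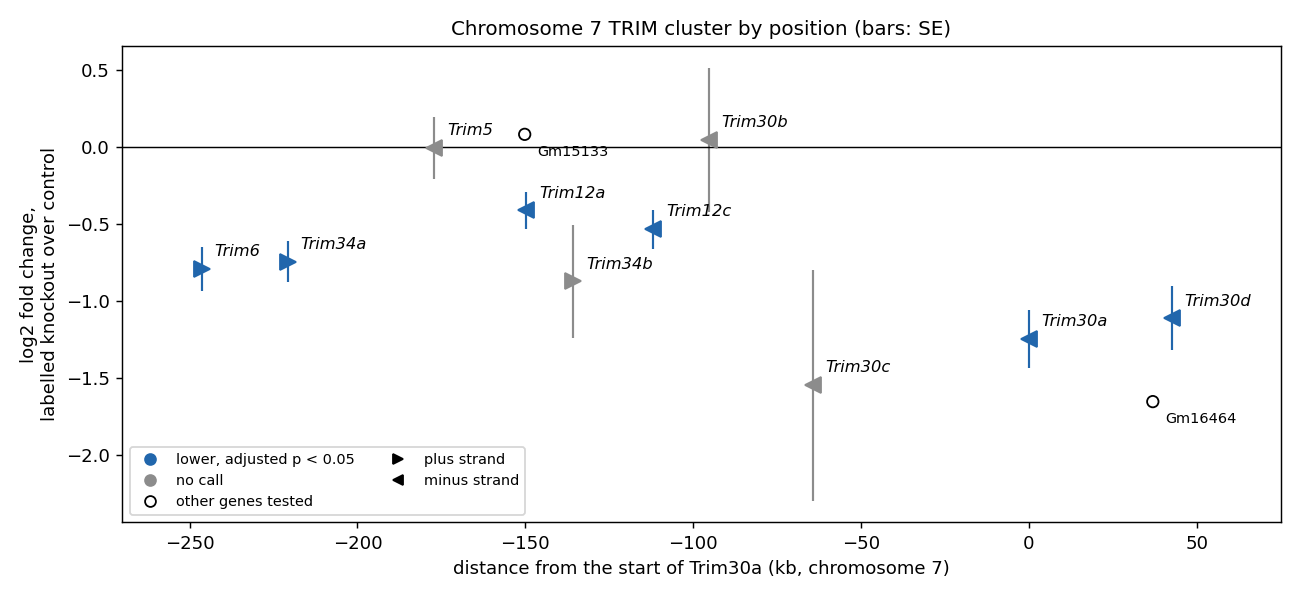
Log2 fold change, labelled knockout over control, of the tested genes of the chromosome 7 block against distance from the start of Trim30a in kb, with bars for the standard error of the members. Triangles point along the strand; 6 blue members were lower, Trim5 and Trim30b lie near 0, and open circles are the 2 tested genes that are no members, drawn without bars.

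Several members of the block resemble each other enough for reads to be shared. Of the 50-base windows of its transcripts, Trim34b shared 56.8% and Trim34a 39.8%, all with each other. Trim5 shared 36.3% and Trim12c 33.0% with any other gene, mostly between themselves. Trim12a shared 10.4%, Trim30d 7.49% and Trim30a 5.98%. How the authors' counting treated such reads was not stated, so the values of the Trim34 and the Trim5 and Trim12 groups are uncertain to that extent.

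Interferon-induced members elsewhere did not move as one. Trim21, a cytosolic antibody receptor on chromosome 7 outside the block, had 25.8, 15.6, 19.6, 22.7 and 25.7 CPM in the libraries labelled knockout, against 34.03, 40.3, 31.3 and 41.1 CPM in control libraries. Groups did not overlap, with a log2 fold change of -0.75 (SE of 0.15, edgeR-adjusted p = 0.00596). Trim14 lacks a RING domain and serves as an adaptor in mitochondrial antiviral signalling. Its level was 15.3, 7.81, 8.26, 13.8 and 13.8 CPM in the libraries labelled knockout, against 25.4, 25.2, 20.7 and 20.6 CPM in control libraries. All libraries labelled knockout were below the controls, replicates 2 and 3 the lowest, with a log2 fold change of -0.96 (SE of 0.21, edgeR-adjusted p = 0.00763). Trim14 shares 31.3% of its exon bases with Nans on the opposite strand, and Nans was higher (41.4 CPM in the libraries labelled knockout and 33.9 CPM in control libraries, edgeR adjusted p = 0.0473). Reads of the pair cannot be told apart if strand was ignored.

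Trim25, the ligase that activates the RNA sensor RIG-I, had 328.1, 587.5, 706.6, 271.8 and 267.5 CPM in the libraries labelled knockout, against 236.9, 283.5, 216.3 and 267.2 CPM in control libraries. Replicates 2 and 3 labelled knockout were far above all other libraries, replicates 4 and 5 lay within the control range, and no call was made, with a log2 fold change of 0.78 (SE of 0.31, edgeR-adjusted p = 0.0828). Without replicates 2 and 3 labelled knockout the log2 fold change was 0.21 (edgeR adjusted p = 0.230). The call was reached with DESeq2 (adjusted p = 0.0268) and with edgeR on leaving out replicate 4 (0.0485) or replicate 5 (0.0478) labelled knockout. Trim56, which promotes STING and Toll-like receptor signalling, had 233.3, 205.4, 230.8, 245.2 and 250.2 CPM in the libraries labelled knockout, against 212.3, 233.4, 214.99 and 228.96 CPM in control libraries, with a log2 fold change of 0.067 (SE of 0.08, edgeR-adjusted p = 0.562). Trim26, which acts on IRF3, had 122.1, 110.8, 137.8, 114.4 and 134.9 CPM in the libraries labelled knockout, against 106.9, 123.2, 110.4 and 126.9 CPM in control libraries, with a log2 fold change of 0.086 (SE of 0.09, edgeR-adjusted p = 0.512). The groups overlapped in both genes, and of the pair Trim26 holds an ISRE in its promoter. Trim38 was below the test's filter, with 4 counts in all over the libraries labelled knockout and 2 over the control libraries.

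**Figure D4:**
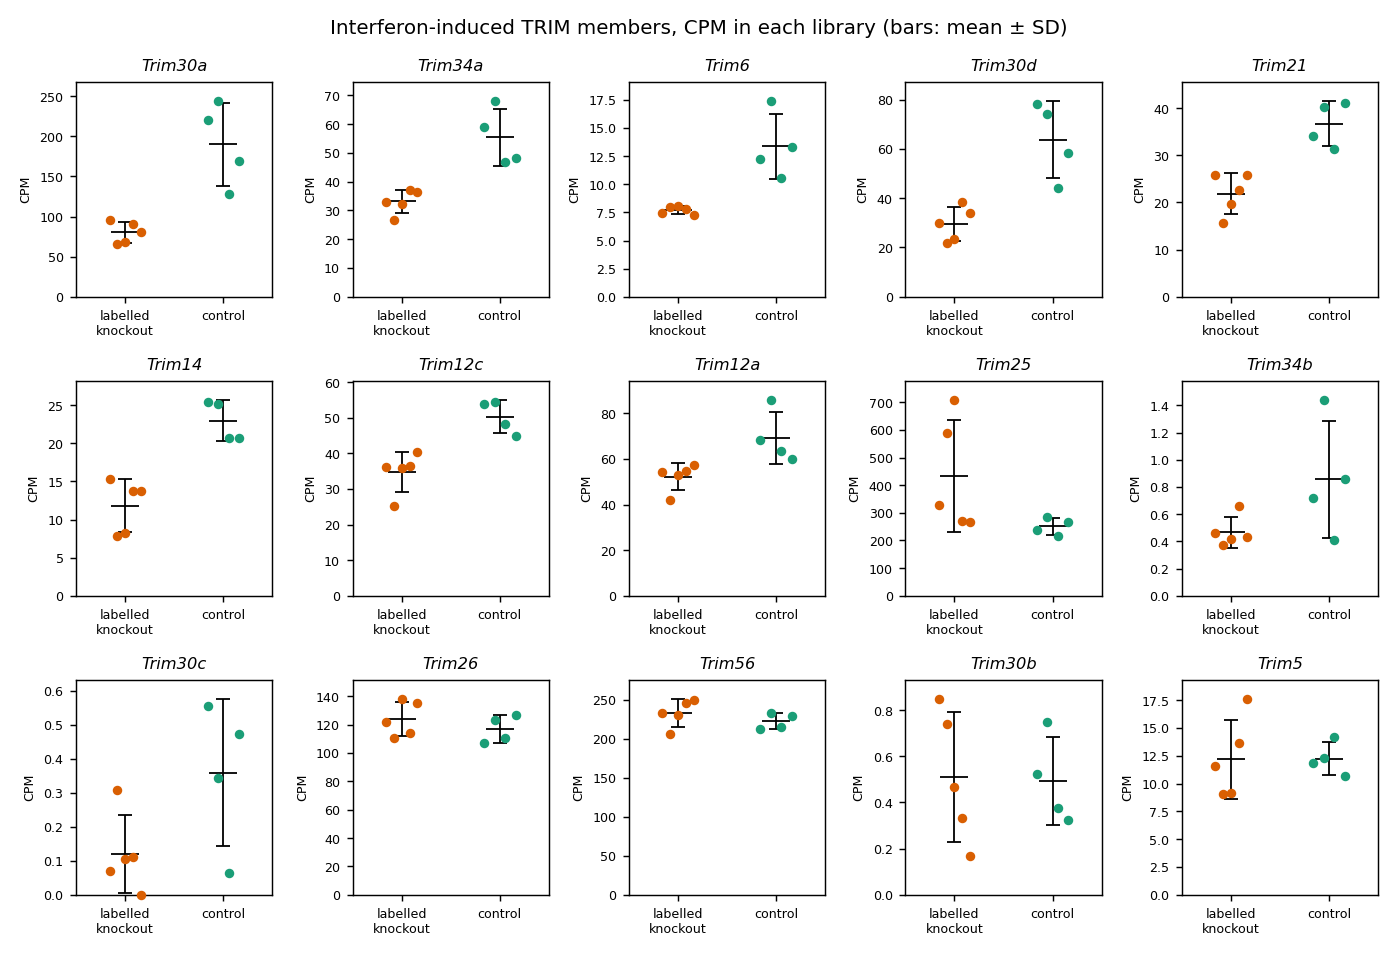
Level in CPM of the 15 tested interferon-induced members in each library, labelled knockout (5 points) left of control (4 points) in each panel, with bars for the mean ± SD and panels in order of p. The first 8 panels, Trim30a to Trim12a, show no overlap between the groups, and Trim25 shows the 2 high libraries at 587.5 and 706.6 CPM.

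The 8 lower interferon-induced members shared which libraries were extreme. Replicate 2 labelled knockout was the lowest of its group in 7 of 8, and replicate 5 in the remaining one. Among controls, replicate 3 was lowest in 5 and replicate 4 in 3, and replicate 2 was highest in 5. Their coefficient of variation among control libraries had a median of 17.1% and ranged from 9.10% to 27.1%. For the 6 lower members outside the list it had a median of 7.57% and ranged from 1.61% to 26.84%, and there replicate 3 labelled knockout was the lowest of its group in 4. Members of 1 list share their libraries, so these counts are no set of independent observations.

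The 6 lower members outside the interferon-induced list came from several structural classes. Trim37, whose MATH domain sets it apart and which serves peroxisomes and centrosomes, had the smallest p of the family. It had 17.5, 19.6, 16.03, 20.6 and 20.6 CPM in the libraries labelled knockout, against 38.4, 37.8, 39.05 and 37.7 CPM in control libraries. Controls spanned 37.7 to 39.0 CPM, and the highest library labelled knockout was at 20.6 CPM, with a log2 fold change of -1.02 (SE of 0.09, edgeR-adjusted p = 5.84e-05). Trim37 was thus 2.03-fold lower, and its call held in all 19 alternative settings.

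The NHL class, which ends in a set of repeats that bind RNA or protein, had 2 members lower, 1 higher and 1 without a call. Of all genes tested, 14.8% were lower and 14.5% higher. Trim2, known from nerve axons where it acts on neurofilament light chain, had 23.96, 28.4, 21.7, 29.9 and 32.5 CPM in the libraries labelled knockout, against 49.1, 51.4, 48.8 and 53.97 CPM in control libraries. The groups were far apart, with a log2 fold change of -0.90 (SE of 0.12, edgeR-adjusted p = 0.000524). Trim3, a brain-rich ligase of endosomes and synapses, had 107.4, 107.8, 102.98, 110.7 and 103.9 CPM in the libraries labelled knockout, against 142.5, 153.4, 154.6 and 181.1 CPM in control libraries. The libraries labelled knockout differed little among themselves and all lay below the controls, with a log2 fold change of -0.57 (SE of 0.08, edgeR-adjusted p = 0.000665). Trim2 holds an ISRE match in 1 of its promoters, 30 bases after an annotated start, and for Trim3 no promoter sequence was used.

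Trim71, also called LIN41, is an RNA-binding member best known from embryonic stem cells and early development, and it was the largest called rise of the family. It had 22.1, 23.02, 36.95, 15.9 and 29.2 CPM in the libraries labelled knockout, against 2.39, 2.06, 2.68 and 7.56 CPM in control libraries. All libraries labelled knockout were above every control library, with control replicate 4 nearest at 7.56 CPM. This was a log2 fold change of 2.79 (SE of 0.43, edgeR-adjusted p = 0.00139), or 6.91-fold, and 10.7-fold on leaving out control replicate 4. The fourth NHL member, Trim32, mutated in a human muscular dystrophy, averaged 28.3 ± 5.74 CPM in the libraries labelled knockout and 34.6 ± 2.21 CPM in control libraries (SD, n = 5 and 4), with a log2 fold change of -0.29 (SE of 0.14, edgeR-adjusted p = 0.152).

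Trim35, first described as a growth-slowing gene of blood cell lines, had 181.1, 146.2, 137.2, 181.5 and 143.7 CPM in the libraries labelled knockout, against 234.04, 213.1, 223.8 and 214.9 CPM in control libraries. Groups did not overlap, with a log2 fold change of -0.49 (SE of 0.10, edgeR-adjusted p = 0.00634). The 2 remaining lower members were scarce. Trim7, a partner of glycogenin, had 1.06, 2.44, 3.61, 2.50 and 3.07 CPM in the libraries labelled knockout, against 4.88, 6.28, 7.25 and 5.52 CPM in control libraries. The groups did not overlap, with a log2 fold change of -1.23 (SE of 0.30, edgeR-adjusted p = 0.0131). Trim7 holds an ISRE match in 1 of its promoters. Trim59, a RING protein anchored in membranes, had 7.69, 2.75, 5.74, 4.90 and 6.75 CPM in the libraries labelled knockout, against 12.99, 15.2, 12.9 and 7.53 CPM in control libraries, with a log2 fold change of -1.13 (SE of 0.29, edgeR-adjusted p = 0.0172). Replicate 1 labelled knockout, at 7.69 CPM, was above control replicate 4, at 7.53 CPM, so groups overlapped in Trim59. Its call was lost in 2 of 19 alternative settings, among them leaving out control replicate 2 (edgeR adjusted p = 0.0555).

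The other 4 higher members were 1.22-fold to 1.39-fold higher. Trim8, a binding partner of SOCS1, had 125.97, 137.9, 131.95, 109.3 and 125 CPM in the libraries labelled knockout, against 88.3, 84.3, 99.3 and 90.6 CPM in control libraries. The groups did not overlap, with a log2 fold change of 0.48 (SE of 0.08, edgeR-adjusted p = 0.00245). Trim11, a ligase of protein quality control, had 54.3, 55.4, 63.4, 58.9 and 62.98 CPM in the libraries labelled knockout, against 40.8, 46.4, 48.3 and 50.99 CPM in control libraries. The groups were separate but close, 54.3 CPM for the lowest library labelled knockout and 50.99 CPM for the highest control, with a log2 fold change of 0.34 (SE of 0.08, edgeR-adjusted p = 0.0135). Trim65, which activates the RNA sensor MDA5, had 35.4, 31.4, 35.1, 38.4 and 40.9 CPM in the libraries labelled knockout, against 20.3, 21.9, 29.3 and 32.6 CPM in control libraries. Groups overlapped, with a log2 fold change of 0.48 (SE of 0.15, edgeR-adjusted p = 0.0356). Trim27, found as a fusion partner of RET in human tumours, had 38.04, 44.99, 45.1, 35.9 and 38.2 CPM in the libraries labelled knockout, against 32.95, 32.4, 30.8 and 35.95 CPM in control libraries. Replicate 4 labelled knockout and control replicate 4 overlapped in Trim27, with a log2 fold change of 0.29 (SE of 0.09, edgeR-adjusted p = 0.0372). The call of Trim65 was lost in 7 of 19 alternative settings. Among them were a sex term (edgeR adjusted p = 0.0755) and leaving out replicate 1 (edgeR adjusted p = 0.0567), 4 (0.0637) or 5 (0.0699) labelled knockout, or control replicate 1 (0.0944) or 2 (0.107). The call of Trim27 was lost in 8 of 19. Among them were leaving out replicate 2 (0.0701) or 3 (0.0655) labelled knockout, both of these together (0.127), or control replicate 1 (0.0855), 2 (0.0971) or 3 (0.106). Trim65 shares 3.82% of its exon bases with Trim47 on the same strand.

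**Figure D5:**
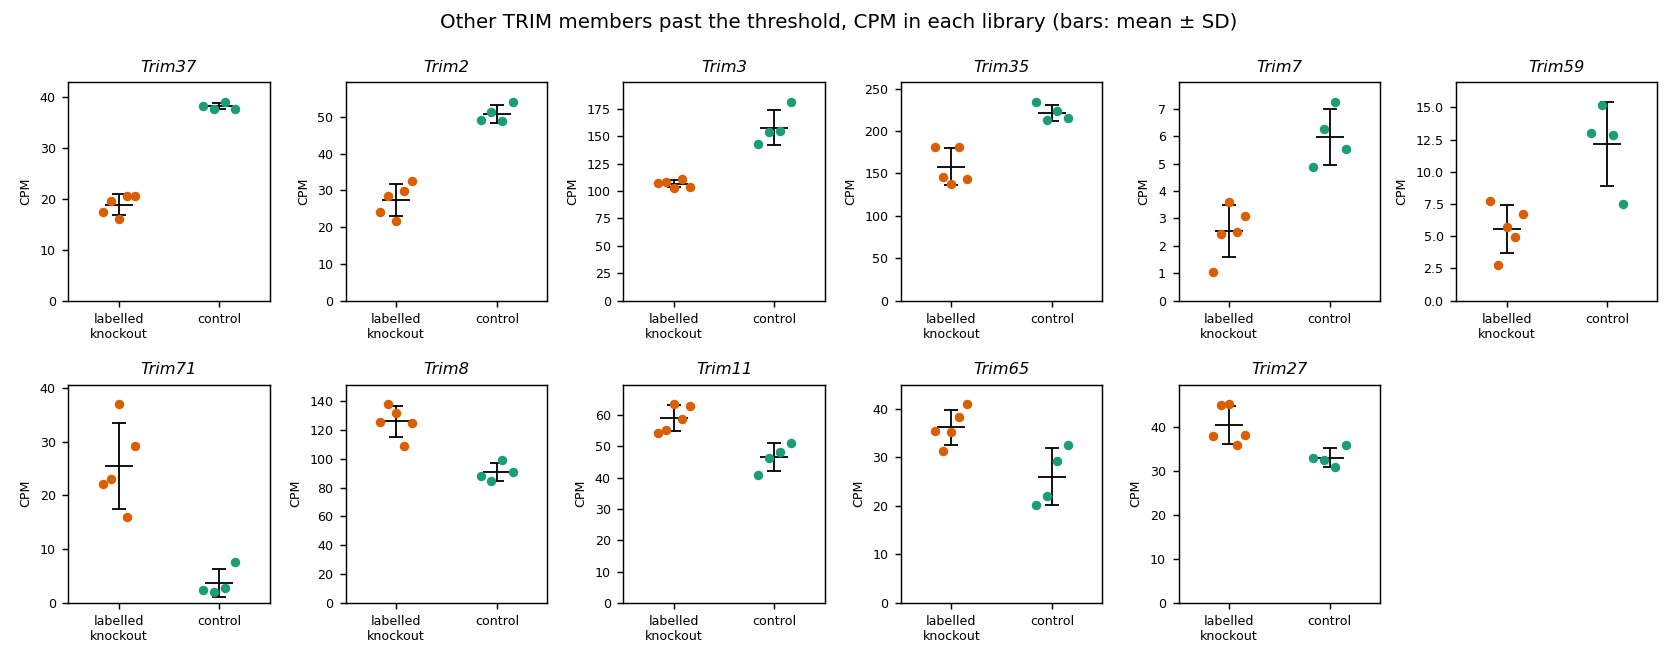
Level in CPM of the 11 members outside the interferon-induced list that passed the threshold, labelled knockout (5 points) left of control (4 points), with bars for the mean ± SD. The upper row holds the 6 lower members, with overlap in Trim59 alone, and the lower row the 5 higher ones, with overlap in Trim65 and Trim27.

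Chromatin-binding members of the TIF1 class, which carry a PHD finger and a bromodomain, made 0 calls in 3 tested. Among all genes tested, 14.8% were lower and 14.5% higher. Trim28 (KAP1), the corepressor of KRAB zinc finger proteins, had 138.8, 134.1, 152.2, 112.3 and 124.4 CPM in the libraries labelled knockout, against 127.03, 123.9, 124.4 and 133.9 CPM in control libraries, with a log2 fold change of 0.056 (SE of 0.09, edgeR-adjusted p = 0.675). Trim24 averaged 131.6 ± 25.6 CPM in the libraries labelled knockout and 108.4 ± 11.3 CPM in control libraries (SD, n = 5 and 4), with a log2 fold change of 0.28 (SE of 0.14, edgeR-adjusted p = 0.167). Trim33 averaged 49.03 ± 2.18 CPM in the libraries labelled knockout and 45.3 ± 3.61 CPM in control libraries (SD, n = 5 and 4), with a log2 fold change of 0.12 (SE of 0.07, edgeR-adjusted p = 0.253). Groups overlapped in all 3. The fourth of the class, Trim66, stayed below the filter.

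Of the members without a call, Trim47 and Trim41 also stood among the most abundant per kilobase. Trim47 had 173.2, 129.8, 111.99, 187.8 and 151.6 CPM in the libraries labelled knockout, against 131.2, 128.2, 174.5 and 169.8 CPM in control libraries, and the means of the groups were the same to 3 digits, with a log2 fold change of -0.00066 (SE of 0.16, edgeR-adjusted p = 0.998). Trim41 had 76.3, 103.8, 105.7, 85.5 and 99.6 CPM in the libraries labelled knockout, against 90.3, 101.97, 99.9 and 99.7 CPM in control libraries, with a log2 fold change of -0.057 (SE of 0.10, edgeR-adjusted p = 0.71). The rest of the membrane, ARF and filamin classes, Trim13, Trim23 and Trim45, had no call, with log2 fold changes of -0.10 ± 0.21, -0.03 ± 0.09 and -0.42 ± 0.23 (SE). Of members described as lacking the RING domain, Trim16 and Trim44 had none either, with log2 fold changes of -0.43 ± 0.22 and 0.15 ± 0.08. Trim39, Trim46, Trim62, Trim68 and Trim69 completed the tested members, with log2 fold changes between -0.61 and 0.09 and no call. A missed threshold does not show that levels were equal.

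The 26 members that could not be tested were nearly silent in these cells. None exceeded 0.525 CPM in any library, 15 had 0 counts in all 9 and 17 had at most 3 counts in all. A count of 0 in a library allows a level of up to 0.11 CPM by counting error alone, in the shallowest one. They included all 4 muscle members, Trim54, Trim55, Trim63 and Trim72, and 4 of the 5 microtubule-binding COS-box members. Trim17, Trim36, Trim66 and Trim72 were the most abundant, with means between 0.166 and 0.331 CPM in each group. Erythroid Trim58 had 7 counts in all over the libraries labelled knockout and 0 over the control libraries.

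Genes built like TRIM proteins but named otherwise were counted beside the family, and 4 of 6 were tested. Mid1, which binds microtubules, was lower at 37.4 ± 17.6 CPM in the libraries labelled knockout and 82.4 ± 12.7 CPM in control libraries (SD, n = 5 and 4), a log2 fold change of -1.14 (SE of 0.31, edgeR-adjusted p = 0.021). Its relative Mid2 was higher at 124.02 ± 14.3 CPM in the libraries labelled knockout and 93.3 ± 2.48 CPM in control libraries (SD, n = 5 and 4), a log2 fold change of 0.41 (SE of 0.09, edgeR-adjusted p = 0.00635). Pml, the organizer of nuclear bodies and itself interferon-induced, had no call at 181.3 ± 47.1 CPM in the libraries labelled knockout and 212.7 ± 32.8 CPM in control libraries (SD, n = 5 and 4), a log2 fold change of -0.23 (SE of 0.20, edgeR-adjusted p = 0.422).

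Lists of the enzymes and targets that TRIM ligases work with were counted against the 14.8% of all genes that were lower and the 14.5% that were higher. Of 13 ubiquitin enzymes and modifiers, 3 were lower and 0 higher. The conjugating enzyme Ube2d1 averaged 60.95 ± 4.12 CPM in the libraries labelled knockout and 85.4 ± 6.39 CPM in control libraries (SD, n = 5 and 4), a log2 fold change of -0.49 (SE of 0.08, edgeR-adjusted p = 0.00135). Isg15, the interferon-induced modifier, averaged 14.4 ± 6.24 CPM in the libraries labelled knockout and 50.9 ± 28.3 CPM in control libraries (SD, n = 5 and 4), a log2 fold change of -1.82 (SE of 0.45, edgeR-adjusted p = 0.0141). Ube2e1 averaged 25.4 ± 1.99 CPM in the libraries labelled knockout and 31.95 ± 3.64 CPM in control libraries (SD, n = 5 and 4), a log2 fold change of -0.33 (SE of 0.09, edgeR-adjusted p = 0.0256). The other 10 enzymes, among them Ube2n, which builds the chains used by Trim25, and the activating enzyme Uba1, had no call.

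Of 17 sensing proteins that TRIM ligases modify, 5 were lower and 3 higher. The DNA sensor Cgas was lower at 6.96 ± 1.34 CPM in the libraries labelled knockout and 12.3 ± 0.897 CPM in control libraries (SD, n = 5 and 4), a log2 fold change of -0.82 (SE of 0.16, edgeR-adjusted p = 0.00402). Its downstream partner Tmem173 (STING) was higher at 142.3 ± 16.4 CPM in the libraries labelled knockout and 93.9 ± 13.7 CPM in control libraries (SD, n = 5 and 4), a log2 fold change of 0.60 (SE of 0.12, edgeR-adjusted p = 0.00454). The adaptor Ticam1 was higher as well, at 27.4 ± 3.85 CPM in the libraries labelled knockout and 18.3 ± 1.004 CPM in control libraries (SD, n = 5 and 4), a log2 fold change of 0.58 (SE of 0.11, edgeR-adjusted p = 0.00422).

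Of 14 interferon receptors and signal proteins, 5 were lower and 4 higher. The receptor chain Ifnar2 was higher at 124.5 ± 8.61 CPM in the libraries labelled knockout and 87.7 ± 3.54 CPM in control libraries (SD, n = 5 and 4), a log2 fold change of 0.51 (SE of 0.07, edgeR-adjusted p = 0.000725). The kinase Tyk2 was lower at 74.8 ± 7.98 CPM in the libraries labelled knockout and 112.1 ± 10.3 CPM in control libraries (SD, n = 5 and 4), a log2 fold change of -0.58 (SE of 0.09, edgeR-adjusted p = 0.00165). Stat2, part of the complex that binds the ISRE, was lower at 170.6 ± 23.8 CPM in the libraries labelled knockout and 321.2 ± 70.01 CPM in control libraries (SD, n = 5 and 4), a log2 fold change of -0.91 (SE of 0.16, edgeR-adjusted p = 0.00218). Of 10 repressor partners of Trim28, 3 were lower and 3 higher. Morc3 was lower at 60.4 ± 3.40 CPM in the libraries labelled knockout and 85.3 ± 9.86 CPM in control libraries (SD, n = 5 and 4), a log2 fold change of -0.50 (SE of 0.09, edgeR-adjusted p = 0.00234). The remodeller Chd3 was higher at 36.3 ± 9.09 CPM in the libraries labelled knockout and 16.5 ± 2.91 CPM in control libraries (SD, n = 5 and 4), a log2 fold change of 1.14 (SE of 0.20, edgeR-adjusted p = 0.00258). The heterochromatin protein Cbx5 was higher at 122.1 ± 19.2 CPM in the libraries labelled knockout and 78.4 ± 4.70 CPM in control libraries (SD, n = 5 and 4), a log2 fold change of 0.64 (SE of 0.12, edgeR-adjusted p = 0.00315).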

How the data were processed

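RNA-seq libraries of polyadenylated RNA from 9 samples were compared, grouped by the sample titles (5 labelled knockout, 4 control). The values are raw counts for each Ensembl gene in a single table that the authors deposited. The submitters' processing notes name STAR 2.7.6a, FastQC 0.11.5 and GRCm38 as the build; for the counting program, its annotation and its strand setting the sources used here give nothing. Per the labels' protocols, libraries were made with one of 2 TruSeq kits, of which 1 keeps strand, without saying which for which library. Nothing in the labels says that the samples came from separate animals, so p-values cover only the spread between samples, which may in part be technical. No library was a copy of another: chi-square over its degrees of freedom was at least 20.3 for each pair within a group.

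Symbols, exon lengths and positions came from GENCODE for GRCm38. Genes were filtered by filterByExpr (minimum count 10), scaled by TMM and tested in edgeR 4.0.16 under R 4.3.3 (glmQLFit with robust estimation, glmQLFTest, no covariate), with Benjamini-Hochberg adjustment over 14583 genes and a threshold of 0.05. The standard error is the log2 fold change over the square root of F. Levels are CPM after TMM. Floors of 3 counts cover counting error only. Promoters came from RefSeq (GRCm38.p6). The test was checked on simulated data, with planted changes larger than those of most called members and none in genes of low count. Smaller changes and scarce genes were not covered by that check. Every named member is an interferon-induced member that passed the filter, another member past the threshold, or 1 of the 4 most abundant per kb without a call; from each list of other genes up to 3 with the smallest p are given, and members outside this rule are given by counts, ranges or single values because they complete a class. Members and lists were chosen with earlier results of these data known. Alternatives were DESeq2 1.42.0, limma-voom (limma 3.58.1), other scalings and filters, a replicate block, a sex term and leaving out libraries.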

Additional observations from a re-analysis of the deposited data

Results flagged for a closer look

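In 2 of 58 groups of libraries looked at (named members, each group apart), 1 library stood far from the rest of its group by Dixon's criterion, which chance meets in about 1 of 20 groups. Trim12c was lowest in replicate 2 labelled knockout at 25.3 CPM, with the other libraries of that group between 35.9 and 40.2 CPM. Trim71 was highest in control replicate 4 at 7.56 CPM, with the other controls between 2.06 and 2.68 CPM.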

How the results depend on the processing

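At the threshold of 0.05, 15 of the 19 called members kept their call and direction under all 19 alternative settings, and 0 reversed. Settings were fewer where a stricter filter left a gene out. The 4 that lost their call somewhere were Trim12a (6 settings, edgeR adjusted p up to 0.119), Trim27 (8, up to 0.127), Trim65 (7, up to 0.107) and Trim59 (2, up to 0.0569). Members lower ranged from 10 (adjusted p under 0.01) to 15, and interferon-induced members lower from 6 to 9. Higher members, all outside the interferon-induced list, were 4 in place of 5 with a sex term (Trim65 lost), 3 with the replicate block and 2 at an adjusted p under 0.01. Leaving out 1 library at a time gave 3 to 5 members higher in all, 3 to 5 other members higher, and 0 to 1 interferon-induced members higher. That 1 member, Trim25, was also called by DESeq2, which made the interferon-induced count 1. Adding TRIM-type genes of another name gave 15 lower and 6 higher, and the longer ISRE left 9 of 12 members with a match.

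Replicate numbers shared by the groups did not pair the samples: deviations of same-numbered libraries correlated at 0.29, -0.03, -0.02 and -0.33, and replicate 1 alone correlated best with its own number. The replicate block was fitted on replicates 1 to 4 of both groups, so replicate 5 labelled knockout was left out. With this block, 12 members were lower and 3 higher. Over all genes 2658 were called, against 4271 in all libraries without the block. Leaving out replicate 5 labelled knockout alone gave 3799, so 2658 and 4271 differ in libraries as well as in the block.

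Signs turned only for uncalled members near 0. Trim5 had a log2 fold change of 0.0016 with DESeq2, 0.0019 with DESeq2 size factors, 0.057 with library totals alone and 0.23 without replicates 2 and 3 labelled knockout (leaving out 1 library, -0.17 to 0.089). Trim30b had -0.070 with limma-voom and -0.13 without those 2 libraries (leaving out 1 library, -0.19 to 0.32). Trim47 had 0.0047 with DESeq2, 0.0047 with its size factors, 0.061 with library totals, 0.0016 without a filter and 0.19 without those 2 libraries (leaving out 1 library, -0.090 to 0.094). Trim28 had -0.016 without those 2 libraries, and Trim41 had 0.0087 with library totals (leaving out 1 library, -0.099 to 0.012). The cause was not tested. Depth limits Trim30b, Trim30c, Trim34b and the untested members, whose levels rest on few counts.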
